A study of Homo sapiens with 48 samples.

Results

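The SCC13 xenograft arm of a pooled CRISPR knockout screen was examined, in which 16 tumors were set against the cells they were grown from. SCC13 is a line from a squamous cell carcinoma of the skin, made to express the Cas9 nuclease through a lentivirus before the guide library was added. All 16 value columns of the SCC13 tumor table and all its rows but the non-targeting row were used. That gave 327 genes, out of 334 that the series design lists, and 16 of the 38 later samples of the series. A tumor is numbered here by its column in the table, which carries no replicate number, so tumor 3 need not be the third replicate of the labels.

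The reference of every column was the initial SCC13 population, deposited as 2 samples of infected, puromycin-selected cells that were frozen before injection. Guide virus had been added at a multiplicity of 0.3. The same Cas9-expressing, library-infected cells were injected with Matrigel into the rear flanks of NOD scid mice that also lack the interleukin-2 receptor gamma chain. Tumors were taken after about 2 months, and the guides were amplified from their genomic DNA. The tumors used for comparison were 8 of A431, an epidermoid carcinoma line, and 10 of CAL27, a tongue carcinoma line, grown in SHO mice and each set against 2 initial samples of its own. Tumors from the same mouse are not marked as such in the labels, and the labels list no culture samples of SCC13. All p-values therefore measure only the spread between these tumors, and the error of the initial cells is in none of them.

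In such a screen each cell carries a guide RNA that directs Cas9 to cut 1 gene. A guide whose target the cells need for growth or survival becomes rarer in the tumor, and a guide against a gene that restrains growth becomes more common. Squamous carcinoma cells keep much of the biology of keratinocytes: growth through the epidermal growth factor receptor, attachment to the basement membrane through integrins, a lineage program under TP63, and a differentiation program that takes cells out of division. The screen asked which of these genes the cells need in a tumor. Guide abundance counts cells, so death and slower division of the cells that carry a guide cannot be told apart.

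For every gene and tumor the table held 1 log fold change, relative to the non-targeting guides, whose row was 0 in every column. Negative values are read here as loss, since the tables do not state the direction. No source used here names the base of the logarithm, so differences are stated in log units and not turned into folds. From each column its median over genes was subtracted, and a value below is a difference from that median gene unless it is called deposited. The median gene itself lay below the non-targeting guides in 15 tumors, down to -2.67 log units, and above them at 0.53 in tumor 3. Read counts were not part of the tables, so depth is unknown.

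Many values sat at a floor. After 1 constant was subtracted from each column, a gene's value often recurred in several tumors to within 1e-05 log units, as would happen where a guide had no reads left. Such recurring values made up 1369 of the 5232 gene and tumor values (26.2%), against 85 of 3270 (2.60%) in CAL27 tumors and 13 of 2616 (0.497%) in A431 tumors. The count misses a floor reached in a single tumor, which does not recur. It may also hold values short of full loss. Of the 222 genes with recurring values, 130 had 2 or more recurring levels, up to 5. Another 157 values that did not recur lay below the lowest recurring value of their own gene. A value at the floor is read here as a bound, and the loss behind it may be larger.

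The depth of the floor differed widely between tumors. In tumors 5 and 8 only 13 and 12 genes were at the floor, and it lay 8.98 and 9.24 log units below the non-targeting guides. These depths and counts rest on few genes. Tumors 5 and 8 had the same difference in 5 genes, against a median of 21 over 120 pairs of tumors. The weakest link used to set the column constants also held 5 genes. In tumors 3 and 7 there were 136 and 140 genes at the floor. It lay 3.03 log units below the non-targeting guides in tumor 7, while in tumor 3 the non-targeting guides themselves were 0.65 log units below the typical floor. Tumors 5 and 8 could thus show losses that tumors 3 and 7 could not. Tumor 3 also had the lowest mean correlation with the other tumors, 0.22 across genes, with 0.28 for tumor 7 and 0.35 to 0.44 for the other 14.

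**Figure D1:**
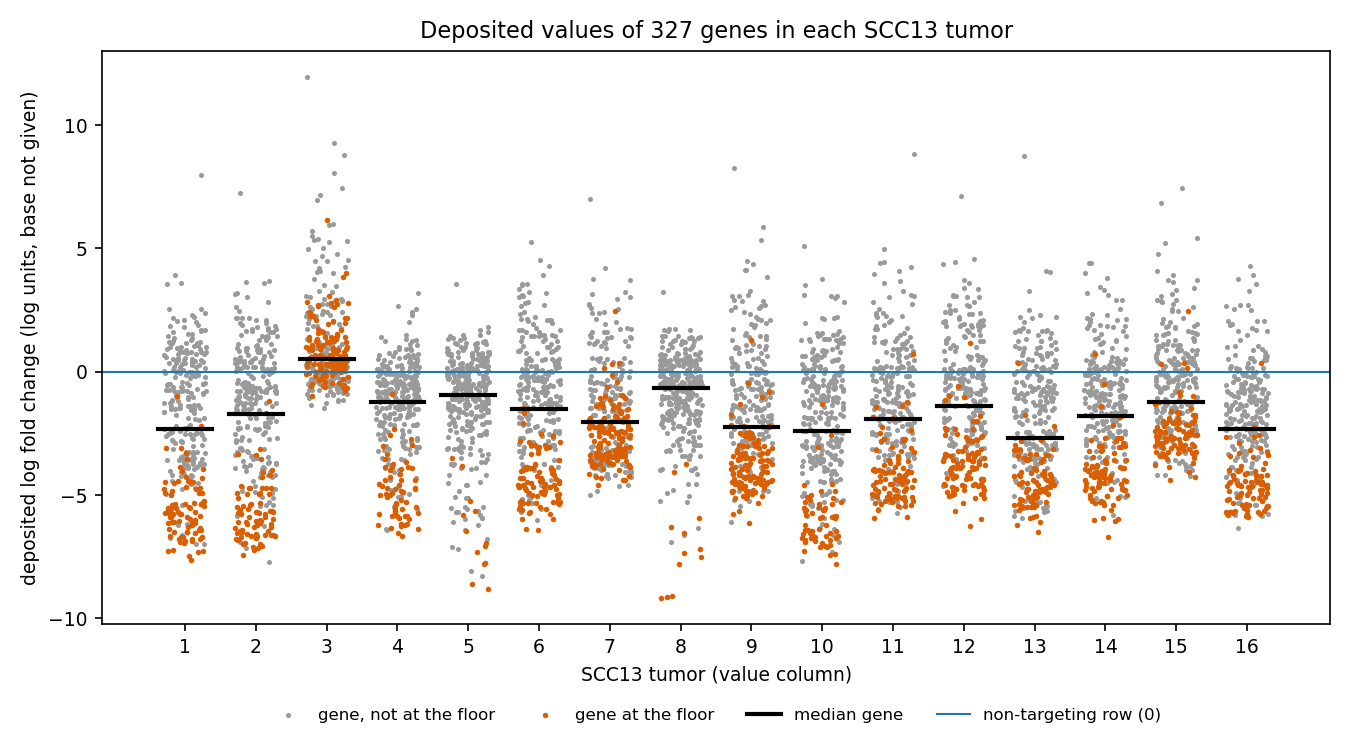
Deposited log fold change (log units, y axis) of each of the 327 genes in each of the 16 SCC13 tumors (x axis, by value column), with values at the floor in orange, the median gene as a black bar and the non-targeting row as a blue line at 0. The floor values form a low band in most tumors, reach the median gene in tumor 3, where 73 of 136 lie above it, and are few in tumors 5 and 8.

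In all, 78 of 327 genes (23.9%) were lower and 77 (23.5%) were higher than the median gene (limma, Benjamini-Hochberg adjusted p under 0.05). Without tumors 3 and 7 the counts were 84 and 71, and without tumors 5 and 8 they were 73 and 72. On the deposited scale, 220 genes (67.3%) were lower and 13 (3.98%) were higher. The choice of zero thus set the split between the directions, and the 2 counts of higher genes answer different questions.

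CDKN2B knockouts led the tumors. CDKN2B encodes p15, an inhibitor of the kinases CDK4 and CDK6 that holds cells before S phase. Its values ran from 2.74 in tumor 4 through a median of 7.77 to 11.42 in tumor 3, a mean of 7.72 ± 2.73 (SD, n = 16). The whole range was above the median gene, and CDKN2B was the highest of all genes in 12 of 16 tumors. It was also above the non-targeting guides in 16 of 16 tumors, where its lowest deposited value was 1.50. The tumors with a deep floor gave some of its smallest values, 4.50 in tumor 5 and 3.88 in tumor 8, and it was still the highest gene in both. In the other 4 tumors the highest gene was ADM in tumors 7 and 15, HDAC1 in tumor 16 and VSNL1 in tumor 4.

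ADM, which encodes the vasodilator peptide adrenomedullin and is a classic target of hypoxia, was next. Its values ran from 0.57 in tumor 4 through a median of 4.27 to 9.06 in tumor 7 (mean 4.72 ± 2.73, adjusted p = 7.44e-13). ADM stood above 8 log units in tumors 3, 7, 9 and 15 and below 6 in the other 12. DEGS1, the desaturase that makes ceramide from dihydroceramide, was less variable, between 1.54 and 6.26 with a median of 4.09 (mean 4.07 ± 1.40, adjusted p = 1.26e-12). DEGS1 and CDKN2B were the only genes among the 13 higher on the deposited scale that were above the non-targeting guides in 16 of 16 tumors.

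TPM2, a tropomyosin of actin filaments, came next on the deposited scale with a mean of 2.34 (adjusted p = 0.000117). The other 9 genes higher on that scale had smaller deposited means. They were PTRF (now CAVIN1), a coat protein of caveolae (1.55), CALML3, a calmodulin-like protein of epithelia (1.30), FAM46B (now TENT5B), a poly(A) polymerase (1.25), the transcription factor CEBPD (1.24), the defensin DEFB1 (1.16), the keratin KRT6A (1.15), the intermediate filament protein VIM (1.11), INHBA, the activin A subunit (1.10), and IRF3, a transcription factor of antiviral responses (1.09). For INHBA and IRF3 the adjusted p was 0.0344 each. These 9 genes were above the non-targeting guides in 10 (FAM46B) to 14 (INHBA) tumors, and TPM2 in 13. The highest deposited values of TPM2, PTRF and FAM46B, 9.25, 7.16 and 6.97, were those of tumor 3. CEBPD and IRF3 were instead below the non-targeting guides there, at -0.40 and -0.23. In tumor 3, 234 genes were above these guides. Whether the calls on the deposited scale hold without tumor 3 was not tested. CEBPA and KLF7, transcription factors that complete the 15 highest centred means, stood at 2.56 ± 1.67 and 2.54 ± 1.24 and did not pass on the deposited scale.

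The 15 lowest means included DNAJC9, DNMT1, DUT and MCM3 of DNA replication and nucleotide supply, and PABPC1, YBX1 and GNB2L1 of protein synthesis. Also among them were ARPC2, PFN1 and ACTB of the actin cytoskeleton. The others were the cyclin CCNB1, the receptor EGFR, the transcription factor JUNB, the enzyme PKM and the integrin subunit ITGB1. DNAJC9, a histone chaperone, ran from -8.41 in tumor 8 through a median of -3.24 to -0.18 in tumor 3 (mean -3.66 ± 2.21, adjusted p = 8.32e-10). DNMT1, the maintenance DNA methyltransferase, ran from -7.12 to -0.61 with a median of -3.20 (mean -3.53 ± 1.62). DUT, which keeps uracil out of DNA, ran from -8.48 to 0.089 with a median of -2.97 (mean -3.51 ± 2.18). These 3 genes were at the floor in 14, 14 and 15 tumors, so their means may understate the loss, by an amount the data do not give.

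EGFR ran from -5.31 in tumor 2 through a median of -3.18 to -0.23 in tumor 3 (mean -3.10 ± 1.27, adjusted p = 1.09e-08). It was at the floor in 11 of 16 tumors and below the median gene in 16 of 16. The mitotic cyclin CCNB1 (-3.27 ± 1.51), the poly(A)-binding protein PABPC1 (-3.19 ± 2.06), the RNA-binding protein YBX1 (-3.07 ± 1.60), the glycolytic enzyme PKM (-2.88 ± 1.31), the ribosomal scaffold GNB2L1 (now RACK1, -2.87 ± 1.48) and the replicative helicase subunit MCM3 (-2.85 ± 1.39) were also below the median gene in 16 of 16. In all, 9 genes (2.75%) were below it in every tumor and 14 (4.28%) above it in every tumor.

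Among the 15 lowest genes the highest of the 16 values was that of tumor 3 for 13, and the lowest value was that of tumor 5 or 8 for 9. Tumors 3, 5 and 8 thus set the extremes of most of these genes. Without tumor 3, the mean was -3.89 for DNAJC9 and -3.29 for EGFR.

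**Figure D2:**
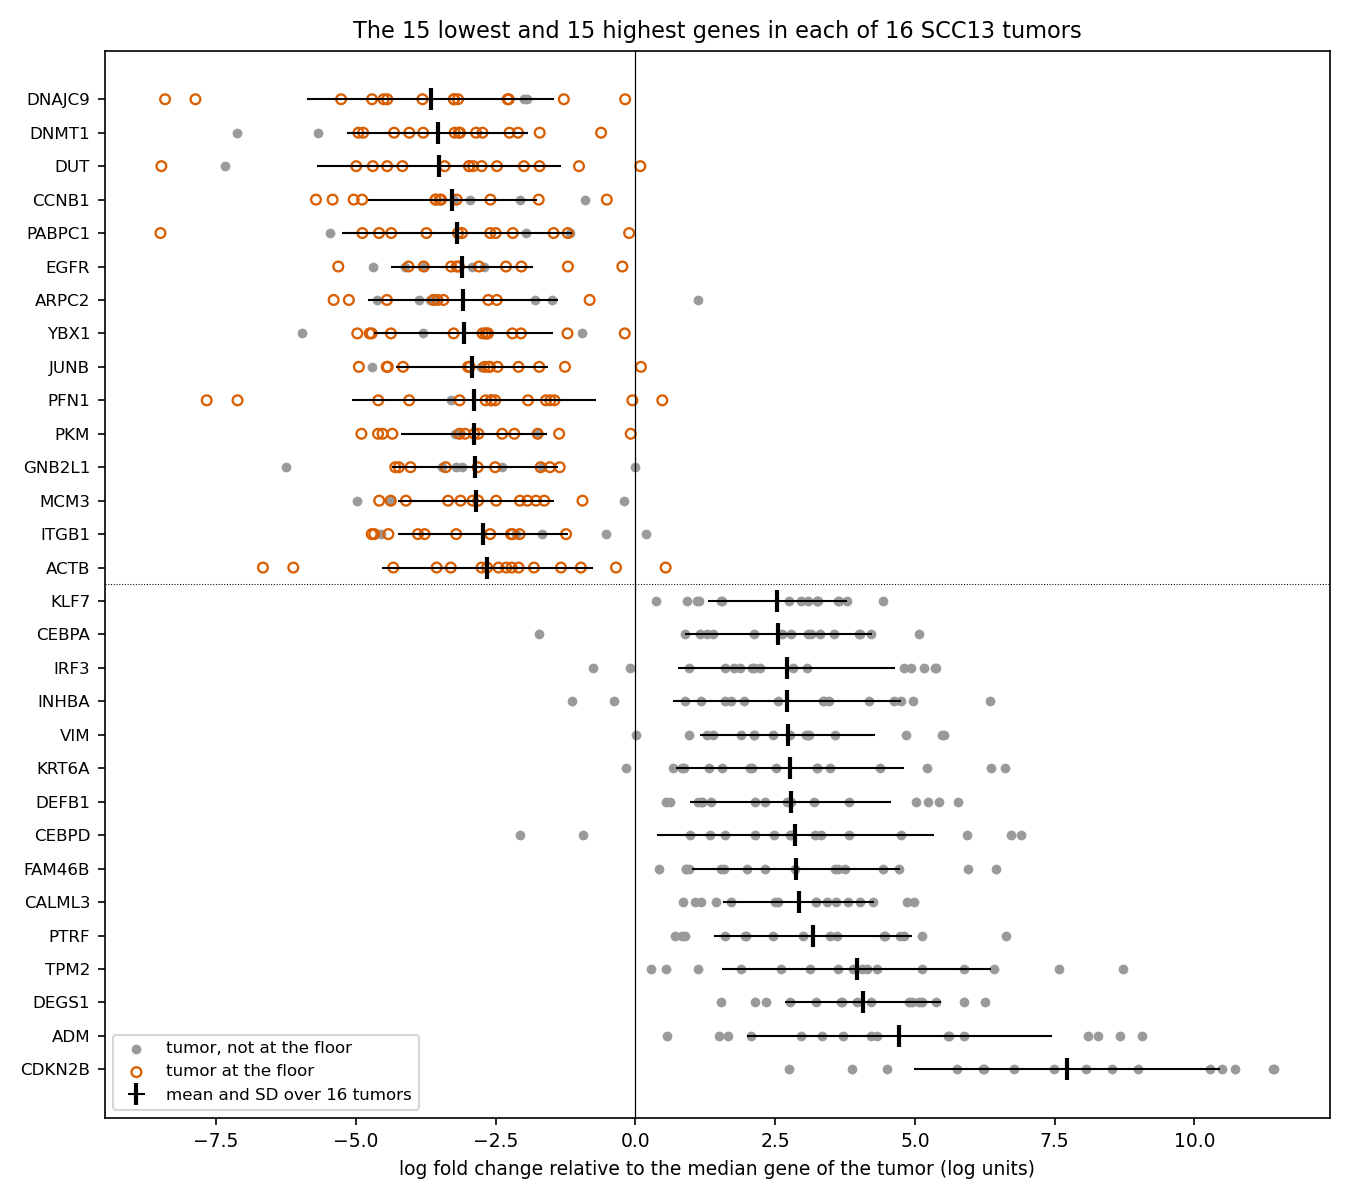
Log fold change relative to the median gene (log units, x axis) of the 15 lowest and 15 highest genes in each of 16 SCC13 tumors, with floor values as open orange circles and the mean and SD as black marks. The 15 lowest genes were at the floor in 9 to 16 tumors each, the 15 highest in none, and CDKN2B lies apart at a mean of 7.72.

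The number of tumors in which a gene was at the floor gave a second view of loss, one that does not depend on the centring. There were 66 genes (20.2%) at the floor in 8 or more tumors and 105 (32.1%) at it in none. ACTB, the cytoplasmic actin, and CDK1, the kinase that drives mitosis, were at the floor in 16 of 16 tumors. BTF3, DUT, HMGN2, the chaperone HSPA5, PFN1 and the ribosomal protein gene RPSA were at it in 15. Of the 66 genes, 54 were lower by the fit, 11 did not pass and 1, BIRC5, was higher. Of the 105 genes never at the floor, none was lower and 67 were higher, with a median mean of 1.33 and of -0.29 on the deposited scale. These counts are not independent of the means, since a value at the floor is among the low values of its gene.

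The height of the floor differed between genes as well as between tumors. Each gene's lowest recurring value was set against the typical floor, the median of these values over genes, with each column's constant removed. Among the 222 genes ever at the floor this height ran from 1.93 log units below the typical floor to 5.49 above it. It was below -0.51 in 1 in 4 genes and above 0.63 in 1 in 4. If floor values are full losses, a gene with a high floor could be lost in nearly every tumor without standing below the median gene. BIRC5, which encodes the inhibitor of apoptosis survivin and is needed for cell division, had the highest floor. It was at the floor in 14 of 16 tumors, and its mean was 2.06 ± 2.31 (adjusted p = 0.000237). In tumors 5 and 8, where the floor was deep, BIRC5 stood at -2.54 and -3.08, and in the other 14 it stood between 0.53 and 5.61. With each floor value set to the median floor of its tumor, an alternative added after the data were seen, BIRC5 turned to -2.02 (adjusted p = 0.000268), and 81 genes (24.8%) were lower and 80 (24.5%) higher. For a gene so often at the floor, a low mean follows largely from that setting. BIRC5 did not pass on the deposited scale (0.44, limma adjusted p = 0.46). Whether its guides were fully lost in these tumors was not tested.

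The genes that did not pass in spite of many floor values were in part housekeeping genes. The beta-tubulin TUBB, at the floor in 13 tumors, had a mean of -0.019 ± 2.01. It stood at -4.31 and -3.30 in tumors 5 and 8 and at 3.48 in tumor 3. With floors set to the tumor's median floor its mean was -2.17 (adjusted p = 2.76e-05). POLR2A, the large subunit of RNA polymerase II, moved likewise from -0.52 to -2.27 (adjusted p = 2.44e-05), RPSA from -0.86 to -2.54 (adjusted p = 1.19e-06) and the mitotic kinase PLK1 from -0.26 to -1.93 (adjusted p = 0.000473). For genes so often at the floor, that setting turns most values into a low constant, so these shifts do not test their loss. All 4 were below the non-targeting guides on the deposited scale, with means of -1.64, -2.14, -2.48 and -1.88. The remaining genes of this kind were NFYB, NASP, RPS19, LAMA3, SREBF1, RRM2 and TCN1, with centred means between -0.98 and -0.33.

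**Figure D3:**
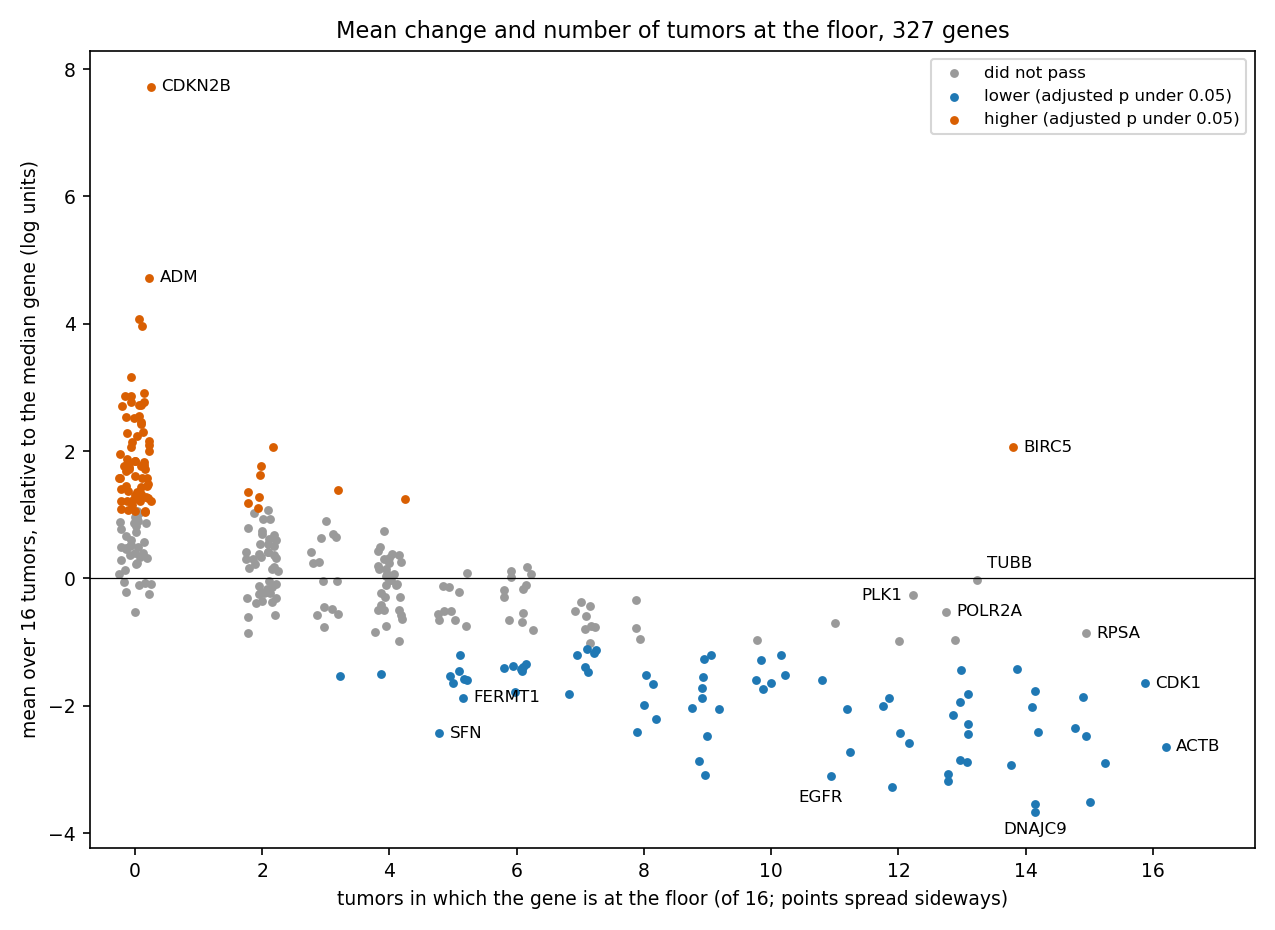
Mean over 16 tumors relative to the median gene (log units, y axis) against the number of tumors in which the gene was at the floor (x axis), 1 point per gene, for 327 genes. Means fall as the count at the floor rises, with BIRC5 at 14 tumors and a mean of 2.06 far off that course and TUBB, POLR2A, PLK1 and RPSA between -0.86 and -0.019 at 12 to 15 tumors.

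Genes were also read by function. The lists were drawn up with earlier results of these data known, so their counts are descriptions, to be set against 23.9% lower and 23.5% higher over all genes and a median mean of -0.019. The chart of gene lists shows the 22 with 3 or more measured genes, and some genes are in more than 1. A list of EGFR and MAPK signalling had only EGFR measured and is not shown.

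DNA replication and nucleotide supply held the largest share of lower genes, 10 of 15, with none higher and a median mean of -2.05. Besides DNAJC9, DNMT1, DUT and MCM3, the helicase subunits MCM5 (-2.59 ± 1.40) and MCM7 (-2.29 ± 1.73), GINS2 of the same helicase complex (-2.44 ± 1.61), the flap endonuclease FEN1 (-2.05 ± 1.41), the repair factor BRCA1 (-2.01 ± 1.40) and thymidylate synthase TYMS (-1.45 ± 1.78) fell. Of the list's values 62.1% were at the floor. Among the 5 that did not pass, the ribonucleotide reductase subunit RRM2 stood at -0.70, CLSPN at -0.81, TK1 at -0.28, HELLS at 1.03 and PCNA, the sliding clamp of replication, at 0.19. PCNA was at the floor in 6 tumors, and its lowest recurring value was 3.39 log units above the typical floor. In 4 other tumors PCNA lay below that recurring value, once each column's constant was removed.

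The mitotic genes were split. Of 23, 12 were lower and 5 higher, with a median mean of -1.21 and 47.6% of values at the floor. Lower were CCNB1, CCNB2, CDK1 (-1.65 ± 2.06), the anaphase-promoting complex activator CDC20 (-1.43 ± 2.00) and its ubiquitin-conjugating enzymes UBE2C (-2.02 ± 1.94) and UBE2S (-1.39 ± 1.59), the condensin subunit SMC4, the spindle assembly factor TPX2, CKS1B, HMMR, KPNA2 and CENPF. The calls of CDK1 and CDC20 were lost without the deep-floor tumors 5 and 8 (adjusted p = 0.061 and 0.10), which left 10 lower genes in the list. That of CENPF was lost without tumor 1, 2 or 10. Higher, besides BIRC5, were the proliferation marker MKI67 (1.83 ± 1.94), the spindle protein NUSAP1 (1.58 ± 2.35), ARL6IP1 (1.36 ± 1.96) and CKS2 (1.10 ± 2.11). MKI67, NUSAP1 and ARL6IP1 were never at the floor. MKI67 ran from -2.92 to 4.07 with a median of 2.18 and was above the median gene in 14 of 16 tumors, while NUSAP1 was above it in 11 and ARL6IP1 in 12. None of these 3 passed on the deposited scale, where their means were 0.22, -0.037 and -0.26.

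Regulators of the G1 phase included the highest gene of the screen and a gene among the lower ones that acts in the opposite sense. CCND2, a D-type cyclin that activates CDK4 and CDK6, ran from -4.55 to 0.80 with a median of -2.59 (mean -2.42 ± 1.62, adjusted p = 5.00e-06) and was below the median gene in 15 of 16 tumors. MYC also fell (-1.28 ± 1.73), and E2F8, a repressor of the E2F family, rose (1.38 ± 1.63). E2F1 (0.90), E2F2 (-0.16) and E2F7 (0.42) did not pass. E2F4, a repressor that is in none of the lists, was lower (-1.60 ± 1.97).

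Protein synthesis and folding had 5 of 8 genes lower and none higher, with 55.5% of values at the floor. PABPC1, YBX1 and GNB2L1 were joined by the endoplasmic reticulum chaperones HSPA5 (-1.87 ± 1.84) and HSP90B1 (-1.81 ± 1.92). HSP90AA1 (-0.85), XBP1 (0.15) and SLC25A6 (-0.22) did not pass.

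Cytoskeletal genes went in both directions. Of 12 actin genes, 4 were lower: PFN1 (-2.89 ± 2.18), CFL1 (-2.14 ± 1.61) and ARPC2 (-3.08 ± 1.69), which turn over or branch filaments, and ACTB itself (-2.65 ± 1.89). The 4 higher genes encode filament-binding or bundling proteins, TPM2 (3.96 ± 2.41), the caldesmon CALD1 (2.46 ± 1.67), fascin FSCN1 (1.18 ± 2.21) and TPM1 (1.15 ± 1.82). ARPC1B, of the same complex as ARPC2 (0.28), and the filament cross-linker FLNA (-0.043) did not pass. TPM2 ran from 0.28 to 8.72 and was above the median gene in 16 of 16 tumors. Among 6 tubulin and stathmin genes, TUBA1C (-1.74 ± 2.07) and STMN1 (-1.73 ± 1.83) fell and TUBB4B rose. TUBB4B was among the steadiest of the higher genes, between 0.48 and 4.30 with a median of 2.65 (mean 2.52 ± 1.13, adjusted p = 1.02e-06).

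Integrin genes went in both directions. ITGB1, the beta subunit shared by most receptors for collagen, fibronectin and laminin, ran from -4.71 to 0.18 with a median of -2.41 (mean -2.73 ± 1.52, adjusted p = 3.82e-07). It was below the median gene in 15 tumors, tumor 14 being the exception, and at the floor in 11. ITGA3, an alpha subunit that pairs with it in laminin receptors, stood at -1.11 ± 1.90 (adjusted p = 0.039) and did not pass without tumors 5 and 8. ITGB4, the beta subunit of the hemidesmosomal integrin, was instead higher, from -1.25 to 5.61 with a median of 2.67 (mean 2.42 ± 1.68, adjusted p = 5.02e-06), and was never at the floor. Its alpha partner ITGA6 stood at -0.21 and did not pass, as did ITGAV (0.37) and ITGB6 (1.03).

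Of the cytoplasmic partners, FERMT1, which encodes kindlin-1, ran from -5.39 through a median of -1.39 to 0.99 (mean -1.88 ± 1.98, adjusted p = 0.000505). FERMT1 was below -3.9 in tumors 1, 2, 4 and 6 and between -0.7 and 1.0 in tumors 3, 8, 9, 10, 13, 15 and 16. It was at the floor in the 4 lowest tumors and in tumor 3, so the other mild values of FERMT1 were not floor values. FHL2, a LIM protein that binds integrin tails, rose to 2.29 ± 1.89. Of 9 genes of the hemidesmosome and its laminin, ITGB4 and DST (2.14 ± 1.99) were higher and the plakin PLEC (-1.39 ± 1.96) was lower. The PLEC call was lost without the tumors with over 100 genes at the floor (adjusted p = 0.081) and with floors set to the tumor's median floor (adjusted p = 0.073).

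Of 8 squamous fate genes, 1 was lower and 4 were higher. TP63, the lineage factor of squamous epithelium, was the lower gene. It ran from -4.55 to 0.99 with a median of -2.06 (mean -1.88 ± 1.32, adjusted p = 0.000237), was below the median gene in 14 tumors and was at the floor in 12. Of the other 7 fate factors, GRHL1, a Grainyhead factor of the epidermal barrier (2.29 ± 1.92), IRX3 (2.01 ± 2.17), the receptor NOTCH3 (1.72 ± 1.71) and SOX4 (1.07 ± 1.53) were higher, and the remaining 3 did not pass. On the deposited scale 4 of the 8 were lower and none was higher.

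Keratinocyte differentiation had 9 of 20 genes higher and 2 lower, a median mean of 1.00 and 10.9% of values at the floor. The higher genes were DEGS1, CALML3, GRHL1, the suprabasal keratins KRT1 (2.16 ± 1.79) and KRT10 (1.21 ± 1.55), the surface protein LY6D (1.80 ± 1.29), the desmosomal cadherin DSG1 (1.62 ± 2.08), the galectin LGALS7 and the channel AQP3. The lower genes were FABP5, an epidermal fatty acid-binding protein (-2.42 ± 1.66), and the glycolipid transfer protein GLTP (-1.34 ± 2.22). With tumors 14 and 16, which were alike, averaged as 1 tumor, 7 were higher and 2 lower. On the deposited scale only CALML3 and DEGS1 of these 9 passed as higher and 8 of the 20 genes as lower, and the other 7 had deposited means between -0.56 (AQP3) and 0.67 (GRHL1).

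Of 9 keratins, 5 were higher and none lower. KRT6A, a keratin of wounded and hyperproliferative epidermis, ran from -0.17 to 6.61 with a median of 2.30 (mean 2.77 ± 2.04), and KRT6B stood at 1.28 ± 2.17 and the basal keratin KRT5 at 1.21 ± 1.42. KRT14, the partner of KRT5, stood at 0.027 and did not pass, nor did KRT6C, KRT15 and KRT16. The guides for KRT6A, KRT6B and KRT6C, near-identical genes, may share targets, and their values are uncertain for that reason. Of 13 junction genes, DSG1, the plakophilin PKP1 (1.35 ± 1.64) and the connexin GJB2 (2.10 ± 2.09) were higher and none was lower. On the deposited scale 3 of the 9 keratins were lower and 1, KRT6A, was higher. Of the 13 junction genes, 6 were lower on that scale and none was higher.

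Among 22 genes of the invasive front and mesenchymal state, 8 were higher and 3 lower, while on the deposited scale 3 were higher and 12 lower. Higher were INHBA, VIM, CALD1, TPM1, TPM2, the receptor TNFRSF12A (1.88 ± 1.39), the membrane protein BASP1 (1.84 ± 1.52) and the cadherin CDH13 (1.04 ± 1.29). VIM ran from 0.010 to 5.52 with a median of 2.61 and TNFRSF12A from 0.44 to 5.51 with a median of 1.73, and both were above the median gene in 16 of 16 tumors. Lower were ITGB1, FERMT1 and PTHLH, which encodes parathyroid hormone-related protein (-1.54 ± 1.63). The other 11 did not pass, among them the collagenase MMP1 (0.48).

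Of 4 caveolar genes, 3 were higher than the median gene. PTRF ran from 0.72 to 6.63 with a median of 3.24 (mean 3.17 ± 1.77, adjusted p = 1.67e-08), the scaffold CAV1 stood at 1.81 ± 1.40 and PRKCDBP (now CAVIN3) at 1.76 ± 1.77. CAV2 stood at 0.50 and did not pass. Only 2 of the 64 values of the list were at the floor. On the deposited scale only PTRF of the 4 was higher, and 1 was lower.

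AP-1 genes, which encode the subunits of a dimeric transcription factor, differed by subunit. Of 8 AP-1 and immediate early genes, JUNB (-2.92 ± 1.37), FOSL1 (-2.41 ± 1.89), FOS (-2.21 ± 1.77) and MYC were lower. JUND, often an opponent of the other JUN proteins in growth control, was higher (1.57 ± 2.30), as was BHLHE40 (1.28 ± 2.29). JUN stood at 0.51 and ATF3 at -0.48, and neither passed. FOSL1 and JUNB were at the floor in 14 tumors each and JUND in none, but JUND turned to -0.048 on the deposited scale and did not pass there.

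Of 5 hypoxia and glycolysis genes, PKM, the glucose transporter SLC2A1 (-2.48 ± 1.46, adjusted p = 2.40e-06) and NDRG1 (-1.54 ± 2.13) were lower and ADM was higher. Of 9 interferon, NF-kB and innate defence genes, IRF3, CEBPA, CEBPD and DEFB1 were higher and the antiviral membrane protein IFITM3 (-1.54 ± 1.82) was lower. RELA (0.56) and RELB (0.37), subunits of NF-kB, did not pass. CEBPD varied more than most, from -2.06 in its lowest tumor to 6.89 in tumor 11.

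Chromatin genes held 3 of 10 higher, the deacetylase HDAC1 (2.06 ± 2.67), the repressor REST (2.23 ± 1.52) and the histone variant H2AFZ (1.06 ± 1.78), and 2 lower, DNMT1 and HMGN2 (-2.34 ± 1.79). Of 10 S100 and annexin genes, ANXA2 (1.45 ± 1.56), S100A7 and S100A14 were higher and S100A11 (-1.59 ± 1.47) and S100A2 (-1.41 ± 1.64) lower. S100A14 is fragile: its call was lost without tumor 2, 3, 6, 10 or 15. Of 19 secreted proteases and matrix proteins, TIMP3 (1.96 ± 1.64), CYR61 (now CCN1) and IGFBP7 were higher, TIMP1 (-1.65 ± 2.04) was lower and 15 did not pass. Of 7 serpins only SERPINB1 passed, at 1.33 ± 1.87. On the deposited scale 7 of the 10 S100 and annexin genes were lower. So were 13 of the 19 proteases and matrix proteins and 6 of the 7 serpins, and no gene of these lists was higher.

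Outside the lists were 120 genes, of which 23 were lower and 20 higher. BTF3, which binds nascent chains at the ribosome, stood at -2.48 ± 1.57, and SFN, the epithelial adaptor stratifin, at -2.43 ± 1.27 (adjusted p = 2.72e-06). SFN was at the floor in 5 tumors and below the median gene in 15 of 16. In 4 other tumors it lay below its lowest recurring value, once each column's constant was removed. SFN had the lowest mean among genes at the floor in under 8 tumors.

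**Figure D4:**
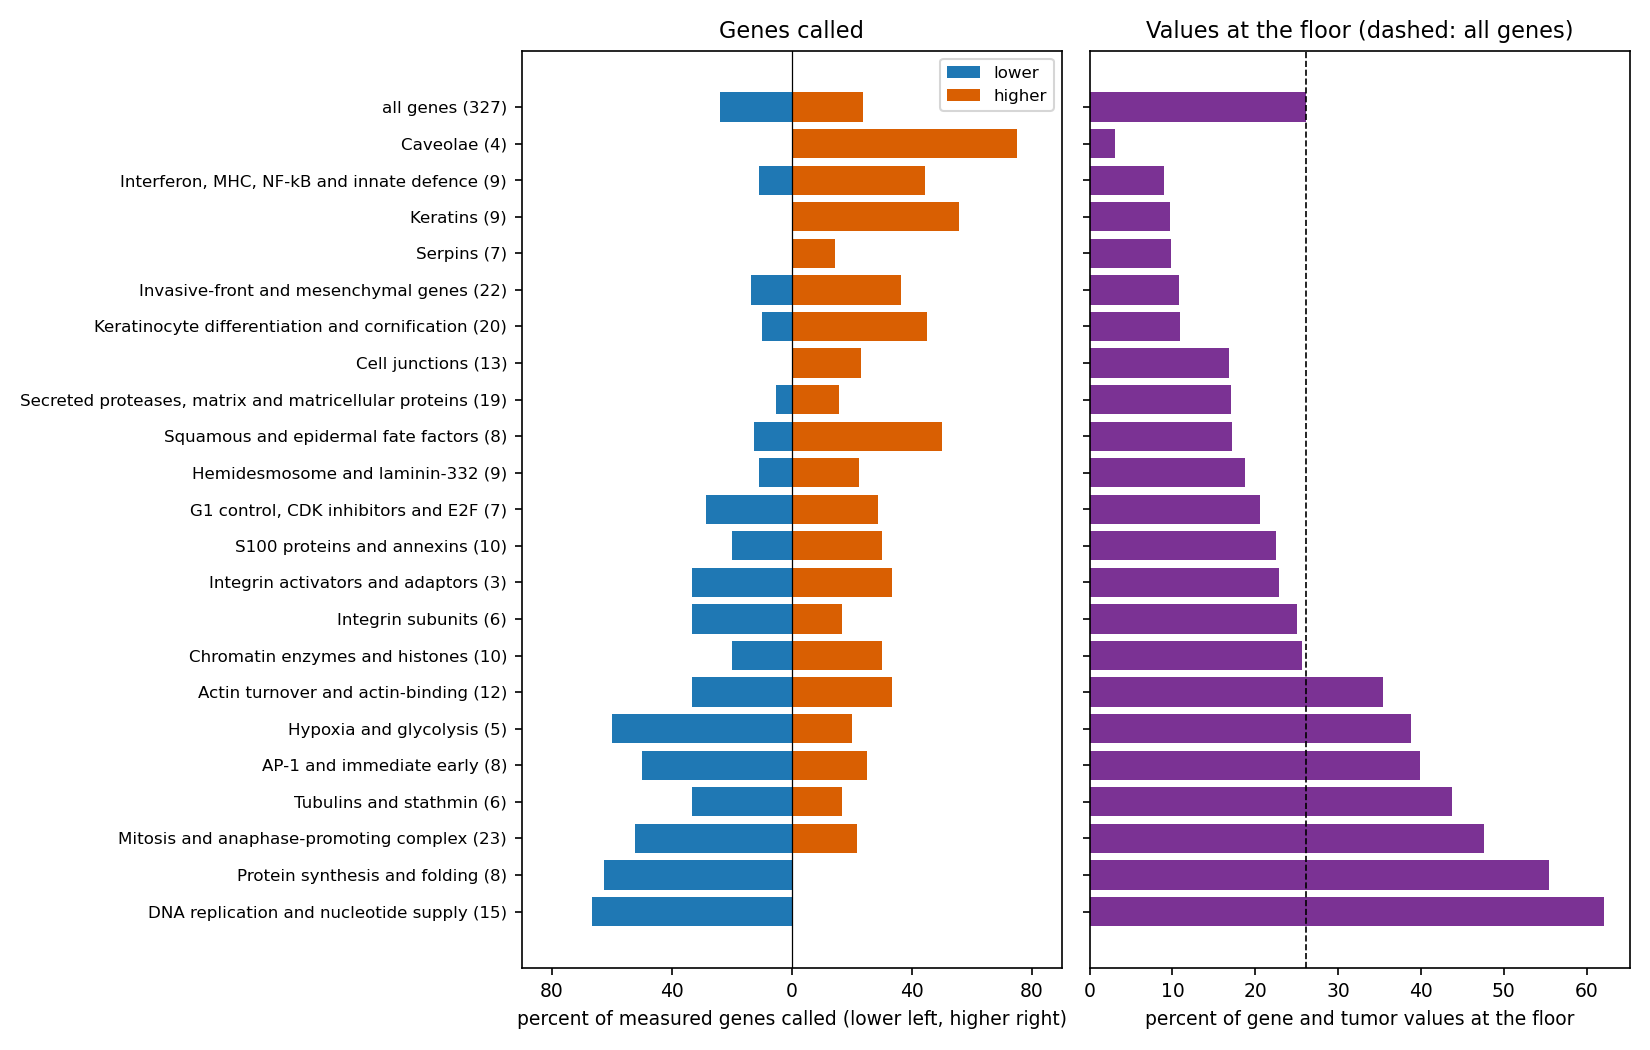
Left, percent of the measured genes of each list called lower (blue, to the left) or higher (orange, to the right) in the 16 SCC13 tumors, with the number of genes in brackets. Right, percent of the list's gene and tumor values at the floor, with 26.2% for all genes as a dashed line. Lists are ordered by that percent, from caveolae at the low end to DNA replication and nucleotide supply at 62.1%.

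The tumors differed among themselves more than the shared changes would show. Across the 327 genes, 2 tumors had a Pearson correlation between 0.05 and 0.79, with a median of 0.40 over 120 pairs. The tumors share their initial cells, which raises all of these values by an unknown amount. The SD of a gene over the tumors ran from 0.72 to 2.95 with a median of 1.79. There were 195 genes above 3 log units in 1 or more tumors, 85 of them in exactly 1 tumor and 45 with a median below 0. Only 9 genes were above 3 in 8 or more tumors.

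LAMB3, a chain of the laminin of the epidermal basement membrane, was the most variable. It stood at 7.51 in tumor 3 and 4.10 in tumor 12, its median was -0.083, and its lowest value was -5.23 in tumor 2. Both high tumors are thus apart from the other 14, in which the highest value was 1.50. ALDH3B2, an aldehyde dehydrogenase, was above 3 in 3 tumors, with 6.63 in tumor 15 and a median of -0.43. Single tumors above 3 were those of NMU, the neuropeptide neuromedin U (4.88 in tumor 2, median -0.42), and CENPF (3.97 in tumor 9, median -1.18). VSNL1, a neuronal calcium sensor and the highest gene of tumor 4 at 4.44, had a median of -0.0023. ITGAE and the RNA-binding protein ZFP36L2 had SDs of 2.85 and 2.88 with 4 tumors above 3 each. None of these genes but CENPF passed.

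Tumors 14 and 16 stood apart as a pair. Their correlation was 0.79 over all genes and 0.81 over the 105 genes never at the floor, and they shared 17 of their 20 highest genes. The other 119 pairs shared 1 to 9, with a median of 4. TEAD2, a transcription factor that partners with YAP, stood at 5.80 and 6.08 in these tumors and at most at 2.50 in the other 14. HDAC1 stood at 6.21 and 6.60, with 6.37 in tumor 9 as the only other value above 5. In 9 genes both tumors were above all others, among them SOX4, CALML3, CLCA2 and FHL2. Their columns hold different values, and whether they came from the same mouse or shared cells is not in the labels and was not tested. With the pair averaged as 1 tumor, 75 genes were lower and 72 higher.

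Tumors 5 and 8, those with the deepest floor, came next at a correlation of 0.69, which was 0.35 over genes never at the floor. They shared 19 of their 30 lowest genes. DNAJC9 stood at -7.87 and -8.41 there, DUT at -7.33 and -8.48, PFN1 at -7.67 and -7.11, ACTB at -6.12 and -6.66, CDK1 at -5.98 and -5.85 and POLR2A at -4.70 and -5.24. POLR2A had not passed over the 16 tumors.

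The SCC13 tumors were then compared with A431 and CAL27 tumors by rank. The 3 tables were normalized separately, so each gene was given its percentile rank within its tumor, with 100 as the highest, and the mean rank in SCC13 was set against the average of the means in the other lines. In SCC13, 30 genes (9.17%) ranked lower and 27 (8.26%) higher (limma adjusted p under 0.05). Line, mouse strain and initial cells differ together and cannot be told apart. The share of values at the floor differed too, as given above, and its part in these differences was tested only through the alternative that gives floor values their mean rank.

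CDKN2B had a mean rank of 99.6 in SCC13, with 98.0 as its lowest, against 66.3 ± 28.3 in A431 (SD, n = 8) and 80.9 ± 13.8 in CAL27 (n = 10). The difference was 26.0 percentage points of rank (limma adjusted p = 0.00216). Against CAL27 alone it was 18.7 and did not pass (limma adjusted p = 0.061). ADM ranked at 92.6 in SCC13, 75.4 in A431 and 94.1 in CAL27, a difference of 7.88 that did not pass (limma adjusted p = 0.32).

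Among genes ranked higher in SCC13, RFX5, a transcription factor of MHC class II genes, stood at 76.6 against 23.0 and 35.1, a difference of 47.5 (limma adjusted p = 1.46e-06). RFX5 was above the median gene in 15 of 16 SCC13 tumors and never at the floor. FAM46B stood at 84.0 against 39.7 and 53.6, and TNFRSF12A at 75.7 against 46.6 and 45.1. The lowest rank of TNFRSF12A in SCC13 was 56.7, and its highest in the other lines was 63.5, so the groups overlapped little. ANXA2, CD151 and ITGAV were also higher, by 32.0, 31.5 and 29.7, but ANXA2 did not pass against A431 alone (limma adjusted p = 0.097), nor CD151 (0.076) and ITGAV (0.11) against CAL27 alone. ITGAV also did not pass with centred log values (limma adjusted p = 0.054). TUBB4B differed by 35.2, but that difference lay with CAL27: its mean rank was 84.3 in SCC13 and 84.2 in A431, and the difference from CAL27 alone was 70.3.

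BIRC5, TUBB and PCNA were ranked higher in SCC13 as well, by 52.3, 44.8 and 36.9. BIRC5 and TUBB are genes with high floors described above. The lowest recurring value of PCNA was high too, but PCNA lay below it in 4 other tumors, so it need not be a floor. TUBB ranked at 51.5 in SCC13 and at 4.85 and 8.69 in the other lines. With floor values given their mean rank, the BIRC5 difference was 8.24 and did not pass (limma adjusted p = 0.57), while TUBB and PCNA still passed.

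FERMT1 was less depleted in rank in SCC13 than in the other lines, at 27.2 ± 20.3 against 4.20 ± 1.86 in A431 and 2.94 ± 3.07 in CAL27, a difference of 23.6 (limma adjusted p = 0.00396). Its highest rank in 18 tumors of the other lines was 9.33, and in SCC13 it ranged from 1.68 to 64.4. For ITGB1 the difference was 10.9 (15.7 against 3.29 and 6.36, limma adjusted p = 0.14), for TP63 12.8 (limma adjusted p = 0.18) and for EGFR 1.99 with a standard error of 5.20 (limma adjusted p = 0.83). None of these 3 passed, which does not show that the lines are alike in them.

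The genes ranked lower in SCC13 were led by USF2, a helix-loop-helix transcription factor, at 29.0 against 73.0 in A431 and 72.7 in CAL27, a difference of -43.8 (limma adjusted p = 4.15e-05). DEK, a chromatin protein, followed at 25.4 against 52.1 and 66.7, a difference of -34.0. SMARCA4, the ATPase of the SWI/SNF remodeller, stood at 57.7 ± 25.5 in SCC13 against 98.1 ± 4.00 in A431 and 80.9 ± 19.1 in CAL27, a difference of -31.8 that did not pass with centred log values in place of ranks (limma adjusted p = 0.093). In SCC13 alone SMARCA4 had a mean of 0.67 ± 1.78 and did not pass. TMEM45A (-31.5) and CCND2 (-30.7) came next. CCND2 ranked at 18.6 in SCC13 and near the middle in CAL27 at 48.7, and its difference from A431 alone was -31.3.

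The remaining genes among the 10 lowest differences were the cathepsin CTSV (-29.5), the carbonyl reductase CBR1 (-29.3), DMKN (-28.7), the sulfotransferase SULT2B1 (-28.6) and the ETS factor ELF2 (-28.3). Of these only SULT2B1 was called lower in SCC13 itself (-1.45 ± 1.87). TMEM45A, CBR1, DMKN and SULT2B1 did not pass against A431 alone, nor did ELF2 against CAL27 alone. With centred log values CTSV, DMKN and ELF2 did not pass (limma adjusted p = 0.081, 0.069 and 0.16).

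**Figure D5:**
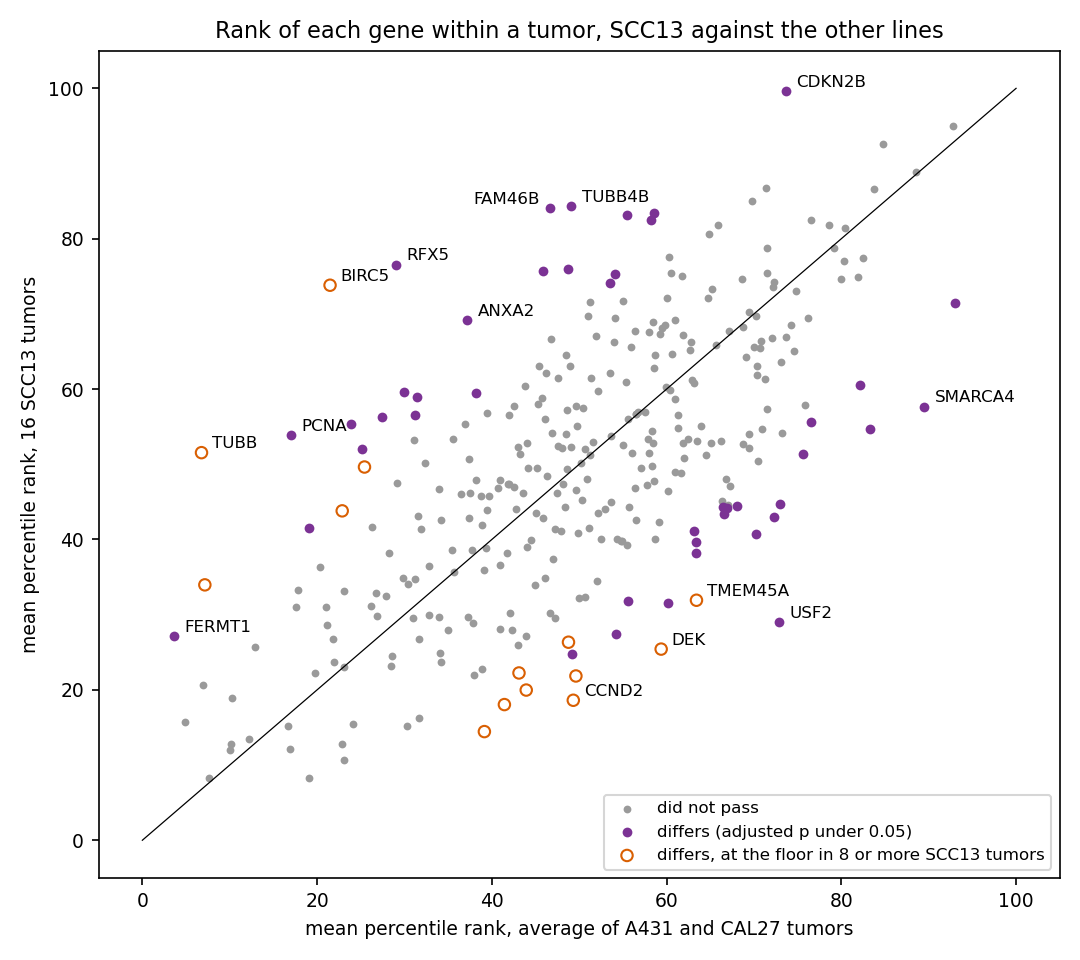
Mean percentile rank of each of the 327 genes within a tumor, over 16 SCC13 tumors (y axis) and as the average of the A431 and CAL27 means (x axis), with genes that differ in purple and those also at the floor in 8 or more SCC13 tumors as orange rings. CDKN2B lies at 99.6 on the y axis, FERMT1 lies above the diagonal at the far left, and USF2, DEK and SMARCA4 lie below it.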

How the data were processed

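The values are log fold changes per gene and tumor that the authors deposited in a table for each line, without a header. Their log base, pseudocount and guide summary are named in none of the sources used. Bowtie2 was used per the submitters' processing notes; no source used here gives its version or the build. The non-targeting row is 0 in every column, and no guide sequences or counts were used here, so depth is unknown. Columns were centred on their median over 327 genes and fitted with limma 3.58.1 in R 4.3.3 (intercept, eBayes), with Benjamini-Hochberg adjustment at 0.05. Percentile ranks within tumors were compared between lines in 1 limma fit. Both fits were tested on simulated data drawn independently for each value. The simulation held no floor and no alike tumors, so it does not cover those features. The members, gene lists and rules were chosen with earlier results of these data known.

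To find the floor, 1 constant per column was taken from the most frequent difference between columns to 6 decimals, and values of a gene recurring within 1e-05 in 2 or more tumors were counted. Named genes were the 15 lowest and 15 highest means among called genes with the mean's sign in at least 75% of columns. To these were added each list's called member with the smallest adjusted p per direction, the 10 most variable, the 10 most often at the floor, each tumor's highest, the 10 lowest and 10 highest rank differences, and CDKN2B, ITGB1, FERMT1, EGFR and TP63. Other list members were named after their values were seen. Symbols are those of the tables: 310 are current in RefSeq, 16 matched as synonyms and 1 did not match. Alternatives were another zero, other tests and weights, treatments of the floor, and tumors left out.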

Additional observations from a re-analysis of the deposited data

Results flagged for a closer look

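The genes below differed in rank between the SCC13 tumors and those of A431 and CAL27, by the test of the difference itself (limma, Benjamini-Hochberg adjusted p under 0.05). The 5 lowest and the 5 highest differences are given, in percentage points of rank within a tumor. USF2 was lower in SCC13 by -43.8, DEK by -34.0, SMARCA4 by -31.8, TMEM45A by -31.5 and CCND2 by -30.7. PCNA was higher by 36.9, FAM46B by 37.4, TUBB by 44.8, RFX5 by 47.5 and BIRC5 by 52.3. Of these genes, DEK, TMEM45A, CCND2, TUBB and BIRC5 were at the floor in 8 or more SCC13 tumors. SMARCA4 did not pass with centred log values, TMEM45A did not pass against A431 alone, and BIRC5 did not pass with floor values at their mean rank. The line, the mouse strain and the initial cells differ together and cannot be told apart.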

How the results depend on the processing

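On the deposited scale the counts were 220 lower and 13 higher. The exact sign test called 43 (13.1%) and 44 (13.5%), and testing only the 261 genes at the floor in under 8 tumors called 46 and 42, with fewer genes tested. With each floor value raised to the highest floor of its tumor, 20 were lower and 5 higher, and the signs of ACTB (0.21), BTF3 (0.16), CDC20 (0.070), CDK1 (0.21), HMGN2 (0.23), HSPA5 (0.069), JUNB (0.091), PKM (0.047), STMN1 (0.14), TP63 (0.0045), ANXA2 (-0.12), JUND (-0.0020), S100A14 (-0.31) and SERPINB1 (-0.25) turned. On the deposited scale ANXA2 (-0.17), JUND (-0.048), S100A14 (-0.35) and SERPINB1 (-0.29) turned, and with floors at the tumor's median floor BIRC5 did (-2.02). By rank, 43 genes were higher with centred log values in place of ranks. The causes were not tested. Leaving out 1 tumor in turn gave 73 to 83 lower and 68 to 77 higher genes, and 25 to 31 and 24 to 29 by rank, where only SCC13 tumors were left out. The treatment of the floor and the choice of zero moved the counts most among the alternatives run. Of 65 genes named for the SCC13 tumors, 65 kept their direction and side of the threshold under array weights, robust eBayes with a trend, and columns divided by their SD, 63 under the exact sign-flip permutation test, 54 under the exact sign test, 45 on the deposited scale and 14 with floors raised to the highest floor. The median floor, the restriction to genes with fewer floor values, and leaving out or averaging pairs of tumors were chosen after seeing the data. No paired analysis was possible because the columns carry no replicate numbers and every value already holds its reference.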
